A study of Mus musculus with 30 samples.

Results

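Nascent RNA of mouse embryonic stem cells was examined for 6 genes of leukaemia inhibitory factor (LIF) receptor signalling. These were the receptor genes Lifr and Osmr, the kinase gene Jak1, the transcription factor gene Stat3, and the STAT3 targets Socs3 and Pim1. They were taken by symbol from the washout count table of 55291 genes and from the 4 time-course gene tables of 21859 genes each, and all 6 were found in every table. RNA was measured by TT-seq, in which a 5 min pulse of 4-thiouridine marks newly made transcripts, introns included. The cells were E14, a mouse embryonic stem cell line, and those of the washout carried an auxin-inducible degron with a V5 tag on SPT16. FACT, the complex that SPT16 is part of, is a histone chaperone. The auxin 3-indoleacetic acid (IAA, 500 nM) removes the tagged protein. In the washout experiment SPT16-AID cells were given IAA or the vehicle ethanol (EtOH) for 12 h and then 24 h of fresh medium, in independently targeted lines 10E and 11D. Each line has 2 libraries for each treatment (8 in all). The time course has 22 further libraries in 11 groups of 2, SPT16-AID cells given IAA or EtOH for 3, 6 or 12 h or taken at 0 h, and untagged cells given IAA for the same times or taken at 0 h. For these the labels' tag and treatment fields often contradict the titles, so the groups rest on the titles. The labels of the IAA washout libraries also carry the ethanol treatment text. Every group grew in serum with LIF (1000 U/mL), a GSK3 inhibitor and a MEK inhibitor, so the pathway was supplied with its ligand in all libraries.

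LIF binds the receptor chain encoded by Lifr, which pairs with gp130, the product of Il6st. The receptor-bound kinase JAK1 then phosphorylates STAT3, which enters the nucleus and activates genes that keep mouse embryonic stem cells self-renewing. Osmr encodes the receptor chain for oncostatin M. Socs3 is a STAT3 target whose product binds the receptor complex and JAK and limits the signal, and Pim1 is a STAT3 target that encodes a serine/threonine kinase.

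Windows of 300 bases around the transcript start, 250 before it and 50 after, are given by RefSeq (GRCm38.p6) for all 6 genes, 8 windows in all. They were searched for TTCNNNGAA, the core to which STAT dimers bind, which reads the same on both strands. It occurred in 1 of the 8 windows, that of Socs3, and in 8.3% of the 32851 RefSeq windows. Among the 46 windows of a wider pathway list, 4 held the motif. They belonged to 3 (Socs3, Cish and Gab1) of the 33 listed genes that have a window. The windows of Socs3 (chr11:117969317-117969616, minus strand), of Stat3 (chr11:100939491-100939790, minus strand) and of Osmr (chr15:6874264-6874563, minus strand) are shown because the first is the one with a match and the others belong to the members that passed a test. Each is written 5′ to 3′ along its gene, with the match in capitals. The match in Socs3, TTCTTAGAA, begins 154 bases before the RefSeq start. The Socs3 and Osmr windows lie wholly inside the genes as counted, which begin further upstream. The Socs3 match is thus within the counted gene and not upstream of it.
Socs3: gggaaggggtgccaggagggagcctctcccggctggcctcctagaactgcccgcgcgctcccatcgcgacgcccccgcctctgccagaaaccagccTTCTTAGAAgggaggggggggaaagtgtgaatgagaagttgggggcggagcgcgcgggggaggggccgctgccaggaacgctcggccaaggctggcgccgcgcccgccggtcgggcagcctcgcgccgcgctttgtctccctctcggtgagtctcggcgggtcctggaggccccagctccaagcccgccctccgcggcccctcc
Stat3: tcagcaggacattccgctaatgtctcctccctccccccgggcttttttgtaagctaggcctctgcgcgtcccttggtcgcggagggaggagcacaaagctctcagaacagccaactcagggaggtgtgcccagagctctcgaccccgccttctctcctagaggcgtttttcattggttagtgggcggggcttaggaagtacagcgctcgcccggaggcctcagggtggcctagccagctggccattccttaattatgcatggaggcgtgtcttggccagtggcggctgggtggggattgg
Osmr: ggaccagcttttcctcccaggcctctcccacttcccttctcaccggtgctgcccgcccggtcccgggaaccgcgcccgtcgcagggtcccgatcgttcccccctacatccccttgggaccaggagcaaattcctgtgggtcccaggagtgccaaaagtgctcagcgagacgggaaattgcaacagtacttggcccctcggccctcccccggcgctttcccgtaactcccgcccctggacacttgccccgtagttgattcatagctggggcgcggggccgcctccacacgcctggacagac
The Stat3 and Osmr windows have no capitals, which says only that these letters are not in these windows. The share of G and C was 73.3% in the Socs3 window, 60.7% in that of Stat3 and 66% in that of Osmr, against a median of 52.7% over all windows.

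IAA libraries of the washout held 6547992 to 10978586 counts and EtOH libraries 11068135 to 16554314. An 18S ribosomal RNA locus took 20.8 to 29.3% of the counts in IAA libraries and 5.73 to 9.27% in EtOH libraries, and its part in the results below was not tested beyond leaving that locus out, which changed no call of a member. Levels are CPM, the usual depth-scaled counts, on library sizes adjusted by TMM, so they are relative to the bulk of genes. They cannot show whether cell number or RNA per cell differed between treatments, nor tell such differences apart. Of 7 markers of pluripotent cells 6 passed the count filter and none was called different. Their summed level was 2184 to 2432 CPM in IAA libraries and 1928 to 3362 CPM in EtOH libraries. Most of it came from Esrrb (mean 1464 CPM in IAA and 1753 CPM in EtOH). Nanog was lower in every IAA library (90.1 to 124.3 CPM) than in any EtOH library (130.3 to 147.0 CPM), as were 11.3% of all tested genes. Its log2 difference missed the threshold (-0.42 ± 0.15 SE, FDR = 0.0801, edgeR). Sall4 was the tested marker with a positive difference (0.59 ± 0.27 SE, FDR = 0.158, edgeR). Sox2 was listed at 0 in every library. Whether that 0 comes from how reads were counted was not tested, so it is not read as absence of Sox2 RNA. The 5 primitive endoderm markers summed to 8.83 to 13.9 CPM in IAA libraries and 8.2 to 10.7 CPM in EtOH libraries, and 3 of them passed the count filter. Of these 1, Pdgfra, was called higher (1.14 ± 0.30 SE, FDR = 0.0223, edgeR), as were 8.83% of all tested genes. Gata6 came to 0.28 ± 0.47 (FDR = 0.721) and Gata4 to -0.12 ± 0.27 (FDR = 0.784, edgeR). The 5 trophoblast markers summed to 10.9 to 11.4 CPM in IAA libraries and 5.28 to 10.5 CPM in EtOH libraries, with none called. Among them Gata3 was higher in every IAA library (7.77 to 10.7 CPM) than in any EtOH library (4.81 to 7.08 CPM), as were 11.8% of all tested genes. Its log2 difference was 0.64 ± 0.23 (SE, FDR = 0.075), and that of Cdx2, the other tested marker, -0.42 ± 1.14 (FDR = 0.831, edgeR). Markers of mesoderm, neural ectoderm and fibroblasts summed to at most 18.6 CPM per class in IAA libraries and 29.2 CPM in EtOH libraries, with none called. Supt16, the gene of the tagged protein, had 91.5 to 131.6 CPM in IAA libraries and 56.9 to 90.5 CPM in EtOH libraries (log2 difference 0.53 ± 0.18 SE, FDR = 0.0658, edgeR). The degron acts on the protein, so this level does not check the treatment.

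Stat3 was the single member that changed past the threshold in the washout. It rose 1.88-fold in IAA cells (log2 difference 0.91 ± 0.26 SE, n = 4 each, FDR = 0.0314 by edgeR's quasi-likelihood test with Benjamini-Hochberg adjustment over 15110 genes). Thus 1 of the 5 members that passed the count filter was called higher and none lower, against 8.83% of all tested genes called higher and 7.6% lower. Lifr, Jak1 and Socs3 had positive differences that missed the threshold, that of Pim1 was negative, and Osmr was below the filter. The median difference was 0.52 over the 5 members and -0.05 over all tested genes.

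**Figure D1:**
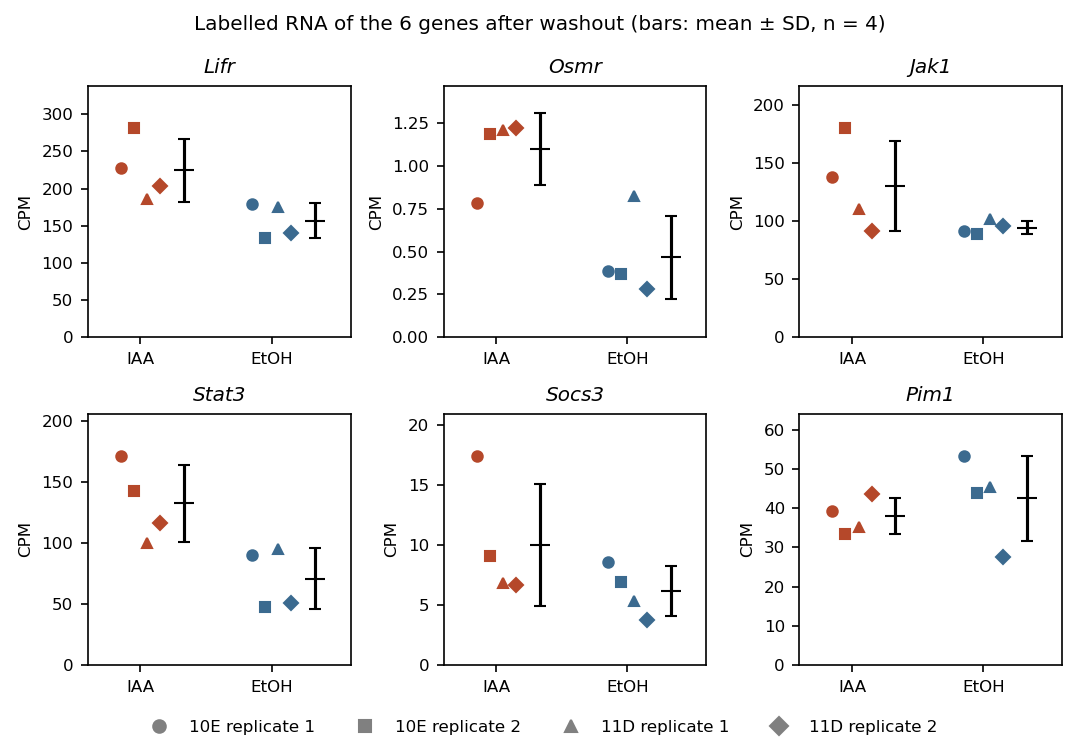
TMM-scaled CPM of the 6 genes (vertical axes, each from 0) in the 4 IAA and 4 EtOH washout libraries, with 1 symbol per line and replicate and the mean ± SD as a bar. All IAA libraries lie above all EtOH libraries for Lifr and Stat3, and the treatments overlap for the other 4 genes.

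Lifr lies on chromosome 15 (mm10, chr15:7090614-7197489, plus strand), a protein-coding gene of 107 kb of which 10.1% is exonic. Its level was 227.1 and 281.6 CPM in the 10E IAA libraries and 185.4 and 203.2 CPM in the 11D IAA libraries, against 178.7 and 132.8 CPM in the 10E EtOH libraries and 175.0 and 139.9 CPM in the 11D EtOH libraries. Every IAA library was above every EtOH library, as for 2 of the 5 tested members and 11.8% of all tested genes, but the lowest IAA library exceeded the highest EtOH library by little. The log2 difference was 0.52 ± 0.18 (SE, FDR = 0.0699, edgeR), which missed the threshold. DESeq2 placed it past the threshold (0.55 ± 0.19, adjusted p = 0.027), while the authors' deposited table, which calls 8.96% of its genes positive, has 0.52 ± 0.20 and an adjusted p of 0.0593.

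Osmr lies next to it on the same chromosome (chr15:6813577-6874969, minus strand, 61.4 kb, 19.7% exonic), 216 kb from Lifr, and was barely read. It had 4 and 9 counts in the 10E IAA libraries and 12 and 11 counts in the 11D IAA libraries, against 5 and 8 counts in the 10E EtOH libraries and 15 and 6 counts in the 11D EtOH libraries. After scaling these were 0.785 to 1.22 CPM in IAA libraries and 0.283 to 0.823 CPM in EtOH libraries, and the groups overlapped. Without a filter on low counts the log2 difference was 1.18 ± 0.64 (SE, FDR = 0.242, edgeR), and the authors' deposited table has 1.28 ± 0.65 (adjusted p = 0.179).

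Jak1, on chromosome 4 (chr4:101152367-101265282, minus strand, 113 kb, 6.4% exonic), encodes the kinase. It had 138.5 and 180.5 CPM in 10E IAA libraries, against 91.8 and 88.6 CPM in 10E EtOH libraries. In line 11D it had 110.5 and 91.4 CPM in IAA libraries, against 102.0 and 95.7 CPM in EtOH libraries. IAA was thus above EtOH in 10E, and the libraries of 11D overlapped. Over both lines the log2 difference was 0.46 ± 0.20 (SE, FDR = 0.134, edgeR). It was 0.27 without 10E IAA replicate 2 (FDR = 0.364) and 0.60 without 11D IAA replicate 2 (FDR = 0.051, edgeR).

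Stat3 lies on chromosome 11 (chr11:100885098-100939540, minus strand, 54.4 kb, 17.5% exonic). Its level was 171.6 and 142.7 CPM in 10E IAA libraries and 99.8 and 116.4 CPM in 11D IAA libraries, against 89.7 and 47.7 CPM in 10E EtOH libraries and 94.9 and 50.4 CPM in 11D EtOH libraries. The groups did not overlap, yet the EtOH libraries split by replicate number. Over all tested genes, too, EtOH libraries of the same number deviated together across lines (correlation 0.71), while the test takes the 4 as independent. In EtOH libraries the mean of those numbered 1 was 1.88 times that of those numbered 2, against a median ratio of 0.976 over all tested genes. The other members had ratios of 1.05 (Jak1), 1.30 (Lifr and Socs3), 1.39 (Pim1) and 1.85 (Osmr, on few counts). Among libraries numbered 1, a subset chosen after the values were seen, the log2 difference was 0.50 ± 0.18 SE (FDR = 0.0309, line as a block), and among those numbered 2 it was 1.43 ± 0.49 SE (FDR = 0.0898). The call was lost without 10E IAA replicate 1 (0.77, FDR = 0.0991), 10E IAA replicate 2 (0.87, FDR = 0.0677), 10E EtOH replicate 2 (0.75, FDR = 0.0856) or 11D EtOH replicate 2 (0.77, FDR = 0.0644), all edgeR. In the authors' deposited table the log2 fold change is 0.89 ± 0.27 with an adjusted p of 0.0117.

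Socs3, a short gene on the same chromosome (chr11:117966079-117970047, minus strand, 3.97 kb, 72.8% exonic), was read by 60 to 89 counts per IAA library and 80 to 149 per EtOH library. Its level was 17.5 and 9.09 CPM in 10E IAA libraries and 6.86 and 6.67 CPM in 11D IAA libraries, against 8.59 and 6.89 CPM in 10E EtOH libraries and 5.32 and 3.77 CPM in 11D EtOH libraries. The treatments overlapped between lines, while within each line both IAA libraries were above both EtOH libraries. The log2 difference of 0.69 ± 0.35 (SE, FDR = 0.194, edgeR) missed the threshold. It was 0.30 without 10E IAA replicate 1, the library at 17.5 CPM (FDR = 0.568, edgeR). The authors' deposited table has 0.68 ± 0.29 (adjusted p = 0.0895).

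Pim1 lies on chromosome 17 (chr17:29490753-29496112, plus strand, 5.36 kb, 62.7% exonic). It had 39.4 and 33.5 CPM in 10E IAA libraries and 35.2 and 43.7 CPM in 11D IAA libraries, against 53.4 and 43.8 CPM in 10E EtOH libraries and 45.5 and 27.6 CPM in 11D EtOH libraries. The groups overlapped, with the lowest value in an EtOH library. The log2 difference was -0.17 ± 0.20 (SE, FDR = 0.610, edgeR), which missed the threshold.

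Between genes, levels compare only per kilobase of gene, as CPM per kb. Pim1 was highest with 7.08 ± 0.854 CPM per kb in IAA cells and 7.95 ± 2.03 in EtOH cells (SD, n = 4 each), above 95.4% of tested genes. Below it came Socs3 with 2.52 ± 1.28 CPM per kb in IAA cells and 1.55 ± 0.521 in EtOH cells, Stat3 with 2.44 ± 0.578 in IAA cells and 1.30 ± 0.461 in EtOH cells, and Lifr with 2.10 ± 0.391 in IAA cells and 1.47 ± 0.221 in EtOH cells. These 3 lay within each other's spread in both treatments. Jak1 followed with 1.15 ± 0.343 CPM per kb in IAA cells and 0.837 ± 0.051 in EtOH cells. Its highest IAA library, at 1.6 CPM per kb, was below the lowest IAA libraries of Socs3 (1.68), Lifr (1.73) and Stat3 (1.83), while in EtOH cells it overlapped Stat3. Osmr was last with 0.0179 ± 0.00345 in IAA cells and 0.00759 ± 0.00395 in EtOH cells. The gene bodies are largely intronic for all but Socs3 and Pim1, so this order mixes intronic and exonic reads in different shares.

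The lines were then set side by side. In line 10E, Jak1 rose (log2 difference 0.82 ± 0.22 SE, FDR = 0.029) and so did Stat3 (1.20 ± 0.35 SE, FDR = 0.0415, edgeR), 2 of 5 tested members, where 8.84% of all tested genes were called higher. Lifr came to 0.71 ± 0.24 in 10E (FDR = 0.0619). In line 11D no member was called, where 1.59% of all tested genes were called higher, and Stat3 came to 0.57 ± 0.35 (FDR = 0.412) and Jak1 to 0.03 ± 0.22 (FDR = 0.959). The difference between lines itself, 10E minus 11D, was 0.79 ± 0.31 for Jak1 (FDR = 0.292, edgeR) and 0.62 ± 0.49 for Stat3 (FDR = 0.567), so no member was shown to respond differently. The same test called 0 of 15110 genes, with 2250 at an unadjusted p under 0.05, and DESeq2 called 148. In EtOH alone the lines differed for no member (the lowest FDR was 0.860, edgeR, for Socs3 and Pim1). That test also called 0 of 15110 genes, with 366 at an unadjusted p under 0.05 and 0 by DESeq2.

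**Figure D2:**
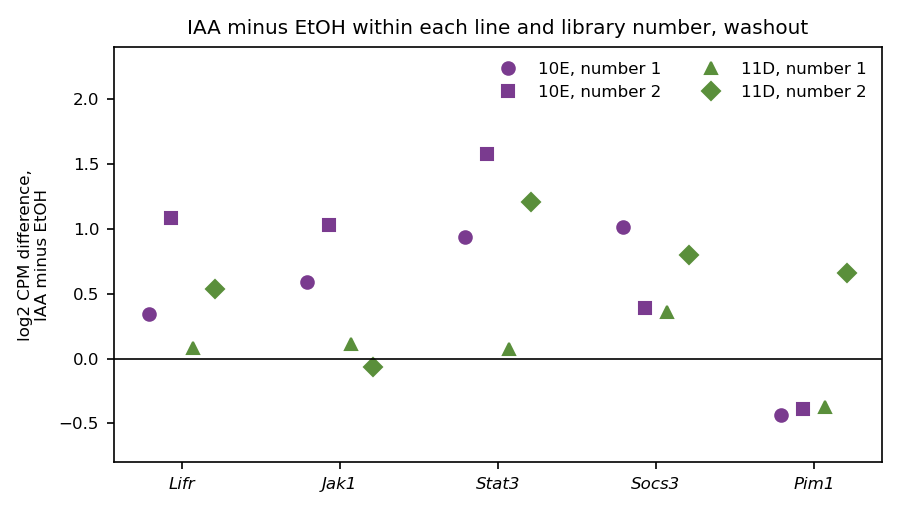
Difference in log2 CPM between the IAA and the EtOH library of the same line and number (vertical axis) for the 5 members that passed the filter, with purple for line 10E and green for 11D. Lifr, Stat3 and Socs3 are above 0 in 4 of 4 such pairs, Jak1 in 3 of 4 and Pim1 in 1 of 4. For Lifr, Stat3 and Socs3 any pairing within a line would give this, because their IAA libraries lie above their EtOH libraries in each line. The library numbers were not found to pair IAA with EtOH libraries.

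Matched by line and number, though the numbers were not found to pair libraries, Stat3 differences ran from 0.07 in 11D number 1 to 1.58 in 10E number 2 (log2). Lifr ran from 0.08 to 1.08 and Socs3 from 0.36 to 1.01. All differences of these 3 genes were positive, as they would be for any pairing within a line. Jak1 ran from -0.07 to 1.03 and was positive in 3 pairs. Pim1 was negative in 3 pairs, between -0.44 and -0.37, and positive in 11D number 2 at 0.66.

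The genes around the members were examined next. On the same strand only Jak1 shares its span with another gene, Gm12785, which had 0 counts in every library, and counting was by strand. How reads in the stretch shared by Jak1 and Gm12785 were assigned was not examined. The 0 therefore does not show that Gm12785 is silent or that the Jak1 count is unaffected. Stat5a, which encodes a related STAT protein and overlaps the 3′ end of Stat3 on the other strand, came to -0.22 ± 0.42 (SE, FDR = 0.755) and Cavin1, 17.2 kb beyond the start of Stat3, to -0.56 ± 0.39 (FDR = 0.343, edgeR). Gm26885, which overlaps the start of Pim1 on the other strand, rose by 0.67 ± 0.20 on the log2 scale (FDR = 0.0354, edgeR). Rictor, an mTORC2 subunit gene and the nearest tested gene below both Osmr and Lifr, came to 0.38 ± 0.18 (FDR = 0.171), Wdr70 above Lifr to -0.04 ± 0.21 (FDR = 0.922) and Pgs1 above Socs3 to 0.37 ± 0.21 (FDR = 0.256, edgeR). Gm11725 below Socs3 came to -0.02 ± 0.39 (FDR = 0.982) and Gm17657 above Pim1 to -0.47 ± 0.48 (FDR = 0.530, edgeR). Raver2, which overlaps the 3′ end of Jak1 on the other strand, came to -0.21 ± 0.21 (FDR = 0.521, edgeR), and E130102H24Rik above Jak1 to 0.09 ± 0.17 (FDR = 0.756).

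The tested genes whose centred log2 CPM profile over the 8 libraries lay closest to each member were found by root mean square (RMS) difference. For Stat3 these were Atg14, an autophagy gene, Rrn3, a gene of an RNA polymerase I initiation factor, and Ipmk, an inositol kinase gene, at RMS differences of 0.108 to 0.124 (log2), against a median of 0.735 over all genes. Lifr was nearest to Rreb1, the chromatin remodeller gene Chd7 and Uvrag (0.067 to 0.076, median 0.516). Jak1 was nearest to Ndufaf2, Tecpr2 and Ubap2l (0.055 to 0.089, median 0.519). Socs3 had 2210406O10Rik, the fatty acid synthase gene Fasn and Slc5a6 as nearest (0.118 to 0.208, median 0.710), and Pim1 had Cenpm, Spata2 and Cdca5 (0.058 to 0.076, median 0.486). None of these is a gene of the pathway list, but only 35 of the 15110 tested genes are on it, so this says little. The genes named were picked as the closest, so lying below the median was fixed by the choice, and the medians give the scale only.

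Across a list of 39 genes of this pathway with the 6 members in it, 35 were tested in the washout, of which 3 rose and none fell, against the shares of 8.83% and 7.6% over all genes. The median log2 difference was 0.14 over the list and -0.05 over all tested genes. Beside Stat3 these were Junb and Ptpn11. The count was 1 (Junb) without 10E IAA replicate 1, 10E IAA replicate 2, 10E EtOH replicate 2 or 11D EtOH replicate 2, and 5 with no filter on low counts.

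Junb, an AP-1 subunit gene and STAT3 target, had 8.24 and 6.85 CPM in 10E IAA libraries and 6.76 and 6.34 CPM in 11D IAA libraries, against 3.09 and 3.89 CPM in 10E EtOH libraries and 1.98 and 1.56 CPM in 11D EtOH libraries. All IAA libraries were thus above all EtOH libraries (1.42 ± 0.32, FDR = 0.0117, edgeR). Within line 11D it was called (1.89 ± 0.36, FDR = 0.0275) and within 10E it missed the threshold (1.10 ± 0.36, FDR = 0.0542, edgeR). The difference between the lines missed it too (-0.79 ± 0.50, FDR = 0.470, edgeR). Ptpn11, the gene of the phosphatase SHP2 that binds gp130, had 131.1 to 179.5 CPM in IAA libraries and 95.8 to 118.8 CPM in EtOH libraries. Its difference of 0.56 ± 0.16 (FDR = 0.0322, edgeR) was past the threshold in 6 of 17 alternative settings.

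Among the 4 tested ligand genes none was called, Lif itself coming to -0.16 ± 0.34 (FDR = 0.787) and Osm to -0.03 ± 0.30 (FDR = 0.963, edgeR). Of 4 other receptor genes none was called over both lines, Il6st (gp130) coming to 0.08 ± 0.20 (FDR = 0.817, edgeR). Cntfr was called higher in line 10E (1.84 ± 0.44, FDR = 0.0204), against -0.18 ± 0.46 in line 11D (FDR = 0.871) and 1.23 ± 0.55 over both lines (FDR = 0.147, edgeR). The difference between the lines missed the threshold (2.02 ± 0.64, FDR = 0.264, edgeR). Of 4 other kinase and STAT genes none was called, of 9 adaptors and inhibitors 1 rose (Ptpn11), and of 9 further STAT3 targets 1 rose (Junb). Among those targets the pluripotency factor genes Klf4 (-0.02 ± 0.21), Klf5 (0.13 ± 0.21) and Tfcp2l1 (0.32 ± 0.22) were not called, and Mcl1, an anti-apoptotic gene, was called lower in line 10E, as were 9.46% of all genes (-0.83 ± 0.24, FDR = 0.0364). Mcl1 came to -0.18 ± 0.23 in line 11D (FDR = 0.739) and -0.49 ± 0.19 over both lines (FDR = 0.0889, edgeR).

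**Figure D3:**
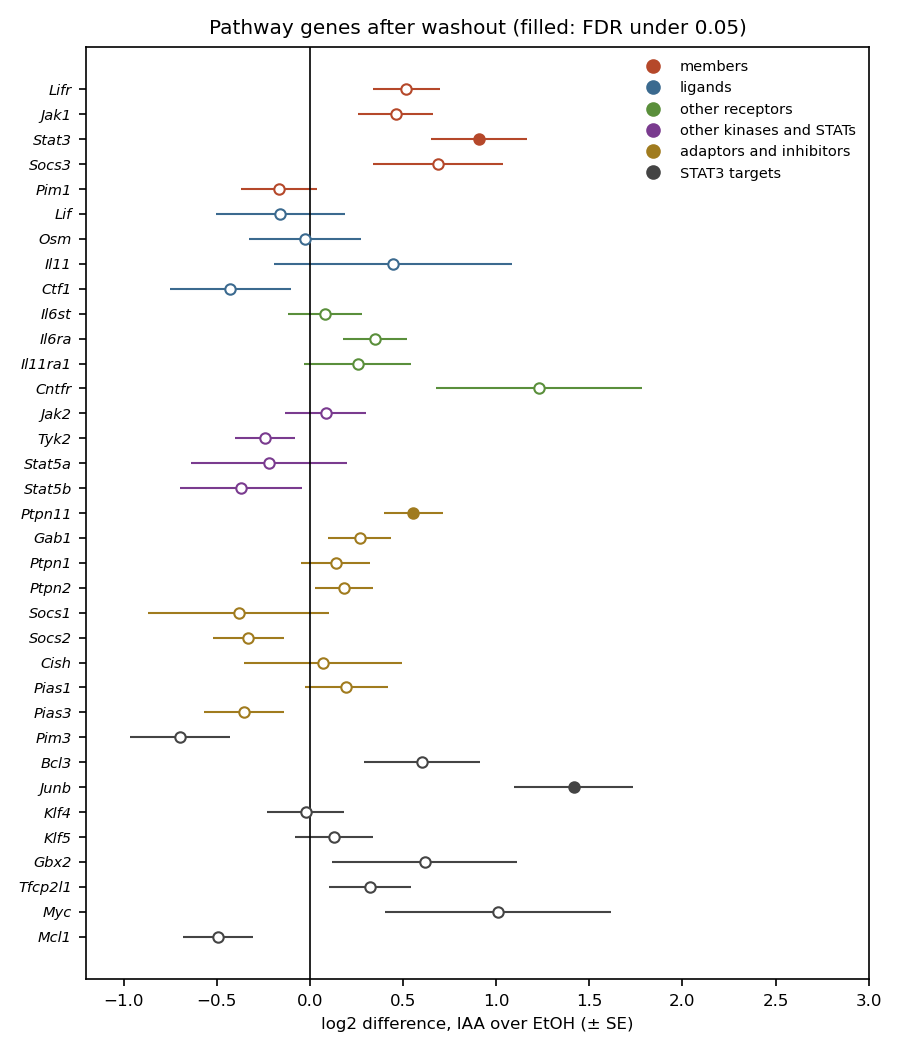
Log2 difference between IAA and EtOH washout libraries (horizontal axis, ± SE) for the 35 tested pathway genes, coloured by list, with filled points for FDR under 0.05. The 3 filled points, Stat3, Ptpn11 and Junb, all lie above 0.

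The time course is held as the authors' comparison tables, which name neither their groups nor their direction, so that changes there carry the sign of the table only and no level per library can be given. Their log2 fold changes are shrunken toward 0. In the authors' deposited table for 0 h no member was called and the shrunken log2 fold changes ran from -1.87e-05 (Lifr) to 6.38e-06 (Stat3), where 0.376% of all genes with an adjusted p were called. In those for 3 h (0.577% of genes called) and 6 h (3.1% called) no member was called either, Osmr having no adjusted p at 3 h, and the widest member value was 0.21 ± 0.18 for Jak1 at 6 h (adjusted p = 0.363).

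At 12 h, where the authors' deposited table calls 8.58% of genes positive and 12.1% negative, 1 of 6 members was called. This was Osmr, positive at 1.32 ± 0.56 on the log2 scale (adjusted p = 0.0145) on a mean normalised count of 24.8. Jak1 had 0.47 ± 0.21 (adjusted p = 0.0606, mean count 2818) and Socs3 0.05 ± 0.31 (adjusted p = 0.907, mean count 577.4) in that table. Stat3 had -0.29 ± 0.20 (adjusted p = 0.244, mean count 3160), Lifr -0.12 ± 0.21 (adjusted p = 0.680, mean count 5054) and Pim1 -0.21 ± 0.26 (adjusted p = 0.532, mean count 980.0). The median over the 6 members was -0.04, against 0.01 over all genes adjusted there, computed from the authors' deposited table.

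**Figure D4:**
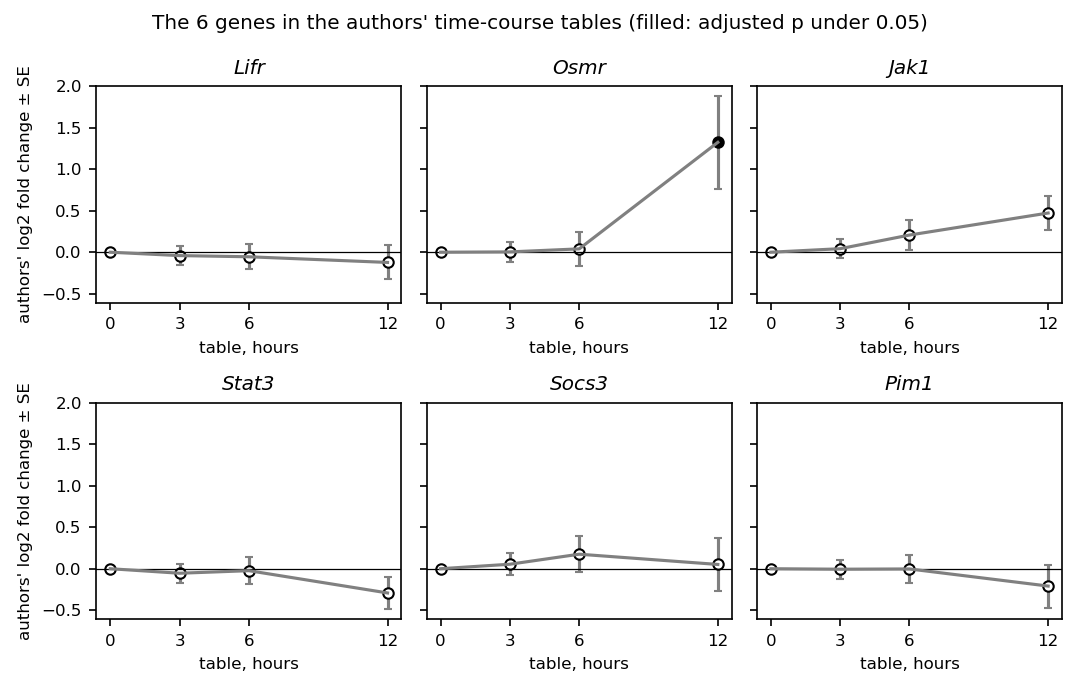
Log2 fold change ± SE of the 6 members in the authors' deposited tables (vertical axis) against the hour of the table (horizontal axis), with filled points for an adjusted p under 0.05. Osmr at 12 h is the filled point, and the sign is as in the tables.

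Of the wider list, 12 of the 36 genes tested at 12 h were called in the authors' deposited table, 7 positive and 5 negative, where 20.7% of all genes were called. The median was 0.08 over the list and 0.01 over all genes. Positive were the ligand genes Ctf1 (1.65 ± 0.38) and Il11 (1.27 ± 0.79), the receptor genes Osmr and Il11ra1 (1.22 ± 0.33), the inhibitor genes Socs1 (1.31 ± 0.76) and Cish (1.25 ± 0.52), and Junb (2.48 ± 0.54). Negative were the adaptor gene Gab1 (-0.69 ± 0.22), the phosphatase gene Ptpn2 (-0.80 ± 0.35), the inhibitor gene Socs2 (-0.62 ± 0.23) and the pluripotency factor genes Klf5 (-0.70 ± 0.24) and Tfcp2l1 (-0.62 ± 0.22). The positive genes had mean normalised counts of 12.2 to 178.3 and the negative ones of 975.7 to 33077 in the authors' deposited table. None was called of the 36 list genes with an adjusted p at 0 h, the 29 at 3 h or the 35 at 6 h.

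Transcripts from the region upstream of the promoter (PROMPTs) are held in the same form. Those of Osmr were listed at 0 in all 4 tables, and those of Lifr, Jak1, Stat3 and Pim1 had mean counts of at most 0.445. The one upstream of Socs3 had mean counts of 0.767 at 0 h, 0.917 at 3 h, 1.2 at 6 h and 2.46 at 12 h. In the authors' deposited table it was called positive at 12 h (log2 fold change 5.49 ± 2.87, adjusted p = 0.0236), where 3.11% of such transcripts with an adjusted p were called positive. The lowest mean count that received an adjusted p there was 2.33, so this transcript was among the faintest tested.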

How the data were processed

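The 8 washout libraries have raw gene counts (read pairs), as the authors deposited them. Per the file headers they were made with featureCounts 2.0.1 over whole genes, summed by gene name, by strand (reverse), on GENCODE genes of mm10. STAR, deepTools and mm10 are named in the submitters' processing notes. Intronic reads are included. The column headers name lines 10E and 11D, which could not be matched to Clone1 and Clone2 of the titles. For the time course, the authors deposited tables of log2 fold changes with their SE (shrunken, in a DESeq2 layout), p-values and adjusted p-values, with mean normalised signal per feature as a count. Tables of enhancer and DNase-hypersensitive regions (8), which hold no gene names, were not used.

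Counts were tested with edgeR 4.0.16 (quasi-likelihood, robust, two-sided, TMM, filterByExpr) in R 4.3.3, with Benjamini-Hochberg FDR under 0.05 over all tested genes. IAA was set against EtOH without a block. Lines and their interaction with treatment came from a 4-group fit. The SE is the log2 difference divided by the root of the F statistic. Log2 CPM used a prior count of 2. Each line occurs in both treatments and so pairs them; blocking on it changed no call of a member. Replicate numbers did not pair IAA with EtOH libraries (correlations of deviations from -0.17 to 0.10), but EtOH libraries of the same number deviated together across lines (0.71), so the 4 EtOH libraries that the test takes as independent are not fully so. Alternatives were DESeq2 1.42.0, RLE scaling, no count filter, the 18S locus left out, each library left out, blocks, and in the tables another adjustment, threshold or count minimum. The edgeR fits were run on simulated counts with known changes in 200 genes. Those libraries were drawn independently, so the simulation does not bear on the shared deviation of the EtOH libraries. The sign of the authors' washout log2 fold change matched IAA minus EtOH for all 2483 called genes. Separate cultures are not stated for the libraries, so the p-values rest on a spread that may be technical.

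Members and lists were chosen with earlier results of these data known, and 1 gene of the pathway is not reported here. Named are the members, every listed gene past a threshold or needed to account for its group, the nearest tested gene on each side of a member, the 3 genes closest in profile, Supt16 and the cell type markers. Promoter windows are RefSeq's (GRCm38.p6), and gene structure is from GENCODE M21.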

Additional observations from a re-analysis of the deposited data

Results flagged for a closer look

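Within the IAA washout libraries Osmr stood at 0.785 CPM in 10E replicate 1, which held 4 counts, while the other 3 IAA libraries lay between 1.19 and 1.22 CPM. The gap to the nearest library was 0.915 of the group's range, above Dixon's 95% critical value for 4 samples. It was 1 of 16 groups examined, and chance flags about 1 in 20.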

How the results depend on the processing

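The 2483 calls between IAA and EtOH in the washout became 1467 with line and number as the replicate block, 2302 with cell line as the block, 3277 with DESeq2, 3656 with no count filter, 3406 among libraries numbered 1 alone and 490 among those numbered 2 alone. Leaving out each library gave 1415 to 2641 calls, and 1 to 3 pathway genes in place of 3, a count that was 5 with no count filter. The line-by-treatment count of 0 became 421 with no count filter and 148 with DESeq2, and 0 to 5 when each library was left out. At an adjusted p under 0.1 the members called in the time course were 2 in place of 1, the addition being Jak1 at 12 h.

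The Stat3 difference ran from 0.50 to 1.43 (log2) over 17 alternatives and passed the threshold in 12 of them. With replicate number and line in the block its FDR was 0.0359 and with line alone 0.0427 (edgeR). Junb passed in 16 of 17, missing it among libraries numbered 2. Pim1 turned to 0.17 among libraries numbered 2. Direction also turned, with no call, when a library was left out for Lifr in EtOH between lines (-0.25 to 0.18), Stat3 there (-0.61 to 0.44) and Socs3 in the interaction (-0.33 to 0.60). The subsets by number and a crossed numbering in 11D (1916 calls) were chosen after seeing the data. Osmr, at 4 to 15 counts per library, was tested in some settings only.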
